A study of Homo sapiens with 10 samples.

Results

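*MYC*, the genes of its dimer network and the neighbouring long non-coding RNA *PVT1* were followed through depletion of a chromatin remodeler in VCaP cells, an epithelial line grown from a prostate cancer metastasis. The genes were taken by name: the *MYC* family (*MYC*, *MYCN*, *MYCL*), the shared partner *MAX*, the antagonists *MXD1*, *MXD3*, *MXD4*, *MXI1* and *MNT*, and *PVT1*, which makes 10 of the 59386 genes listed in every library. The comparison asked whether *MAX*, the antagonists and *PVT1* moved with *MYC* or against it.

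MYC proteins do not bind DNA alone. They pair with MAX, and the MYC:MAX dimer binds the E-box and raises transcription of genes for growth, ribosome assembly and metabolism, while MXD proteins, MXI1 and MNT compete for the same MAX and bring histone deacetylases to the same sites through SIN3. *PVT1* lies beside *MYC* on chromosome 8 in a region that is gained in many cancers, its RNA is known to protect MYC protein from degradation, and its promoter is known to compete with that of *MYC* for enhancers.

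RNA was sequenced from poly(A)-selected libraries in 5 groups of 2 libraries each, 10 in all. VCaP cells had received siRNA A or siRNA B against *SMARCA4*, the motor subunit of SWI/SNF complexes, siRNA A or siRNA C against *SMARCA1*, a motor subunit of ISWI complexes, or were the controls. Cells were harvested 72 h after transfection of 30 pmol siRNA, and the labels used here do not give the siRNA or the dose of the controls. They do not say either whether replicates were separate cultures, so the p-values measure the spread between these libraries, which may be technical, and siRNA transfection as such and loss of the target cannot be told apart in a comparison with these controls.

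Libraries held between 23898545 and 34667965 counts, and the upper limit set by a count of 0 (3 counts) was from 0.0865 to 0.126 CPM (counts scaled to a library of fixed size). *SMARCA4* was left at 7.87% of its control mean in *SMARCA4* knockdown and *SMARCA1* at 8.78% in *SMARCA1* knockdown, while *SMARCA1* stood at 211% of its control mean in *SMARCA4* knockdown. The summed level of 11 prostate luminal markers was between 9867 and 11909 CPM in all libraries, but single markers changed. In *SMARCA4* knockdown 5 of the 11 were called higher and 1 lower, against 45.1% of all genes called. In *SMARCA1* knockdown 2 were called higher and 4 lower, against 46.8%. The leukocyte markers *PTPRC* and *CD3E* had 0 or 1 count in every library. *LYZ*, on the same list of leukocyte markers, rose in both knockdowns (log2 fold change 3.26 and 4.63), while *CD14*, the only other of these markers with enough counts for a test, fell in both (-1.36 and -0.67), and the sum of that list lay between 2.34 and 23.7 CPM. All 25 genes of an interferon-response list rose in both knockdowns, against 22.8% and 23.8% of all genes called higher. Their median log2 fold change was 7.66 in *SMARCA4* and 7.85 in *SMARCA1* knockdown. SMARCA4 siRNA A replicate 2 stood apart from the other knockdown libraries with the lowest sum of these genes (16393 CPM against 23358 to 44985). In bulk RNA, fewer cells of a type and less RNA per cell cannot be told apart.

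Of the 10 genes, 9 had enough counts for a test, and 7 of these 9 changed with loss of *SMARCA4* (adjusted p below 0.05, edgeR's quasi-likelihood test, Benjamini-Hochberg adjustment over 16899 genes). This count stood against a background of 45.1% of all genes tested. In that comparison 3 of the 9 were higher, against 22.8% of all genes, and 4 were lower, against 22.3%. In *SMARCA1* knockdown 7 of the 9 changed as well, against 46.8% of all genes, with 4 higher (23.8%) and 3 lower (23.0%). Both comparisons share the 2 control libraries. Set against each other, *SMARCA4* and *SMARCA1* knockdown differed in 5 of the 9 genes (35.4% of all genes), with 1 higher (16.3%) and 4 lower (19.1%) in *SMARCA4* knockdown.

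**Figure D1:**
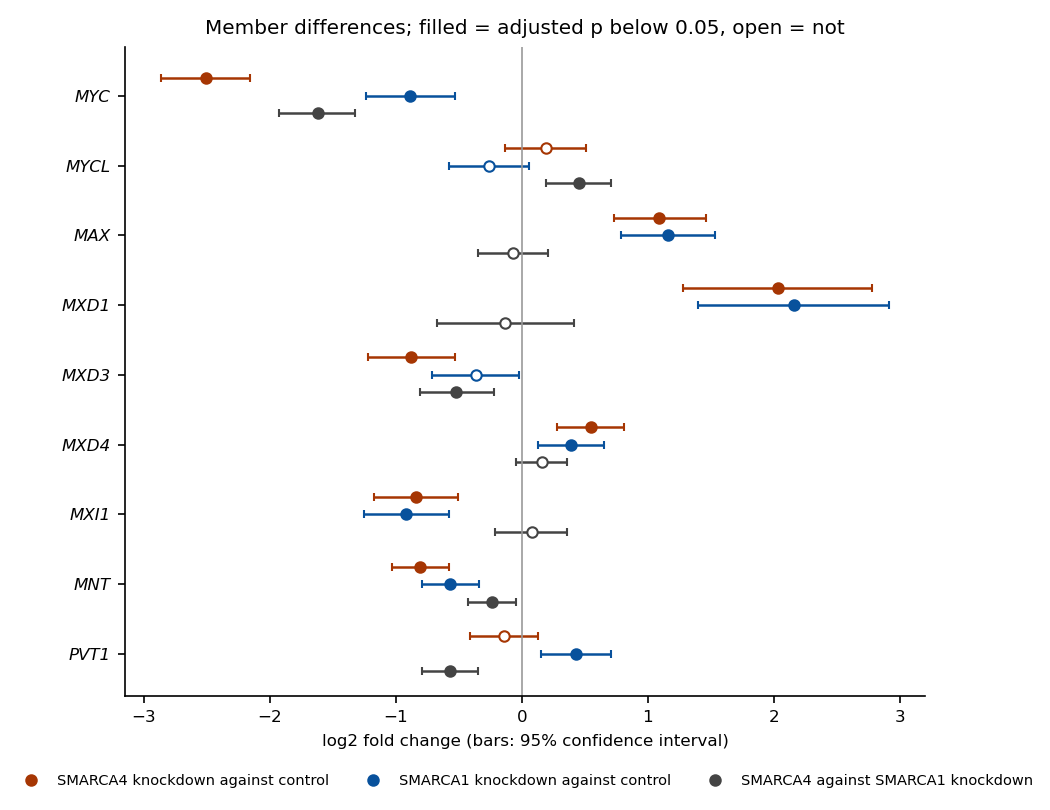
Log2 fold change of the 9 tested genes (x axis) with 95% confidence intervals in *SMARCA4* knockdown against control, *SMARCA1* knockdown against control, and *SMARCA4* against *SMARCA1* knockdown. Filled points passed an adjusted p of 0.05. *MYC*, *MXI1* and *MNT* lie left of 0 and *MAX*, *MXD1* and *MXD4* right of 0 in both knockdowns, and *PVT1* lies at -0.14 in *SMARCA4* and at 0.43 in *SMARCA1* knockdown.

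*MYC* (chromosome 8, 127735434 to 127742951, plus strand, GRCh38) fell in both knockdowns, and in *SMARCA4* knockdown it fell most of the 9 genes. It stood at 318 and 328.5 CPM in the controls, at 87.4 and 102 CPM with SMARCA4 siRNA A and at 42.2 and 25.8 CPM with SMARCA4 siRNA B. With SMARCA1 siRNA A it was at 178 and 188 CPM, and with SMARCA1 siRNA C at 164 and 171 CPM. The 3 conditions did not overlap, with the controls highest. The 4 *SMARCA1* knockdown libraries, 2 of each siRNA, were intermediate (164 to 188 CPM). The 4 *SMARCA4* knockdown libraries, 2 of each siRNA, were lowest (25.8 to 102 CPM). On the log2 scale the fold change was -2.51 (SE 0.16, adjusted p = 4.5e-06, edgeR) in *SMARCA4* knockdown, the 54th lowest of 16899 genes, and -0.89 (SE 0.16, adjusted p = 0.0015, edgeR) in *SMARCA1* knockdown. The difference between the knockdowns was -1.62 (SE 0.14, adjusted p = 7.2e-05, edgeR).

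The siRNAs against *SMARCA4* also differed from each other in *MYC*. *MYC* was left at 29.3% of its control mean with siRNA A and at 10.5% with siRNA B, while *SMARCA4* itself was left at 9.49% and 6.26%. The log2 difference of siRNA B to siRNA A was -1.48 (SE 0.19, adjusted p = 0.0055, edgeR), and *MYC* was the only one of the 9 genes called there, where 6.20% of all genes passed. Fitted to the 4 libraries of these siRNAs alone, 0 of the 9 genes were called by edgeR, where 212 of 15979 genes passed. DESeq2 on all libraries called 1 of the 9, and 1588 of 14622 genes. In the edgeR fit to all libraries 3 of the 9 had an unadjusted p below 0.05, against 24.5% of all genes. The count was higher without SMARCA4 siRNA A replicate 1 or without either library of SMARCA1 siRNA A, where more of all genes were called as well. The siRNAs against *SMARCA1* left *MYC* at 56.5% and 51.8%, and their difference of -0.13 (95% confidence interval -0.54 to 0.29) did not pass.

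The paralogs gave little RNA. *MYCN* (chromosome 2, 15940550 to 15947007) had between 2 and 9 counts in a library and was removed by the filter on low counts, so no fold change is given. *MYCL* (chromosome 1, 39895426 to 39902256) was at 6.02 and 5.16 CPM in the controls and between 5.52 and 6.95 CPM in the libraries of both *SMARCA4* siRNAs and SMARCA1 siRNA A. With SMARCA1 siRNA C it was at 4.0 and 3.60 CPM, below every other library. *MYCL* passed neither test against control (log2 fold change 0.19 and -0.26, edgeR adjusted p = 0.3 and 0.17), but the knockdowns differed by 0.45 (SE 0.12, edgeR adjusted p = 0.014), a call that was lost without SMARCA1 siRNA C replicate 2 (adjusted p = 0.064) or SMARCA4 siRNA B replicate 2 (0.056). SMARCA1 siRNA C on its own gave -0.56 (SE 0.17, adjusted p = 0.022, edgeR), and DESeq2 did not call it.

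*MAX* (chromosome 14, 65006174 to 65102695), the shared partner of the *MYC* family and the antagonists, moved against *MYC*. Its level was 50.02 and 48.9 CPM in the controls, 117 and 76.6 CPM with SMARCA4 siRNA A, 127 and 104 CPM with SMARCA4 siRNA B, 93.3 and 84.5 CPM with SMARCA1 siRNA A and 137 and 138 CPM with SMARCA1 siRNA C. Every knockdown library was above both controls, and the knockdowns overlapped each other. The log2 fold change was 1.09 (SE 0.16, adjusted p = 0.00052, edgeR) in *SMARCA4* and 1.16 (SE 0.16, adjusted p = 0.00044, edgeR) in *SMARCA1* knockdown, and the difference between them was -0.07 (95% confidence interval -0.35 to 0.21). Of the exon bases of *MAX*, 13.1% are shared with *FNTB* on the opposite strand.

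**Figure D2:**
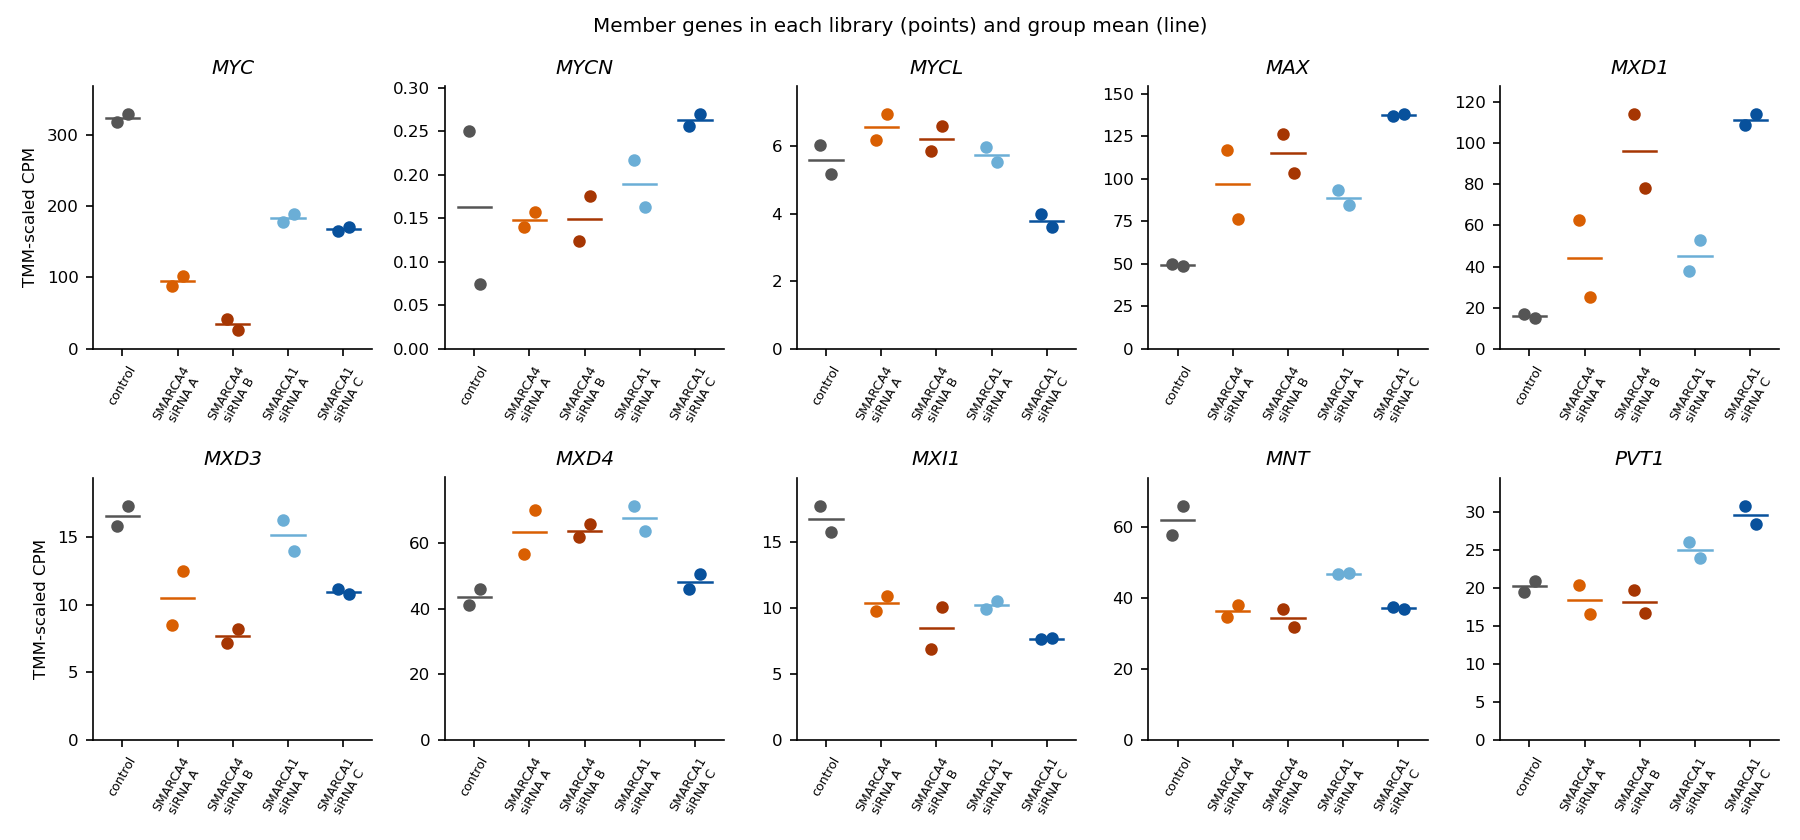
TMM-scaled CPM (y axes from 0, a scale for each gene) of the 10 genes in each library, grouped by siRNA on the x axis; points are libraries and lines group means. *MYC* falls from about 318 CPM in the controls to between 25.8 and 102 CPM in *SMARCA4* knockdown, while *MAX* and *MXD1* are above the controls in every knockdown library.

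The 5 antagonists did not move as a group. *MXD1* and *MXD4* rose, *MXI1* and *MNT* fell in both knockdowns, and *MXD3* fell in *SMARCA4* knockdown.

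*MXD1* (chromosome 2, 69897688 to 69942945), which is switched on as cells leave the cycle and differentiate, had the largest rise of the 9 genes. It was at 16.9 and 15.01 CPM in the controls, at 62.8 and 25.2 CPM with SMARCA4 siRNA A and at 114 and 78.3 CPM with SMARCA4 siRNA B. With SMARCA1 siRNA A it was at 37.6 and 53.1 CPM and with SMARCA1 siRNA C at 109 and 114 CPM. All 8 knockdown libraries were above the controls, but they spread widely, and the lowest was SMARCA4 siRNA A replicate 2. The log2 fold change was 2.03 (SE 0.34, adjusted p = 0.00094, edgeR) in *SMARCA4* and 2.16 (SE 0.34, adjusted p = 0.00075, edgeR) in *SMARCA1* knockdown. The difference between the knockdowns was -0.13 (95% confidence interval -0.67 to 0.41), and it passed only without SMARCA4 siRNA A replicate 1 (-0.52, adjusted p = 0.036, edgeR).

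The interferon-response genes mostly moved with *MXD1* and *MAX* from library to library. Their summed level was 353 and 361 CPM in the controls, 33283 and 16393 CPM with SMARCA4 siRNA A, 43626 and 36786 CPM with SMARCA4 siRNA B, 25261 and 23358 CPM with SMARCA1 siRNA A, and 44500 and 44985 CPM with SMARCA1 siRNA C. SMARCA4 siRNA A replicate 2, lowest of the knockdown libraries in this sum, was also lowest in *MXD1* and in *MAX*, and the libraries of SMARCA1 siRNA C were highest in the sum and in *MAX*. The pair of SMARCA1 siRNA A went the other way in *MXD1*, which was higher in the library with the lower sum. *MAX* was higher in SMARCA4 siRNA A replicate 1 (117 CPM) than in siRNA B replicate 2 (104 CPM), which had the higher sum. *MYC* differed with the sum too. For each target it was higher with siRNA A, where the sums were lower. It was at 87.4 and 102 against 42.2 and 25.8 CPM for *SMARCA4*, and at 178 and 188 against 164 and 171 CPM for *SMARCA1*. The part of the interferon-response genes in the levels of *MXD1*, *MAX* and *MYC* was not tested. Without SMARCA4 siRNA A replicate 2 the log2 fold change of *MXD1* in *SMARCA4* knockdown was 2.32, and over all alternatives it lay between 1.66 and 2.32 with adjusted p of at most 0.016.

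**Figure D3:**
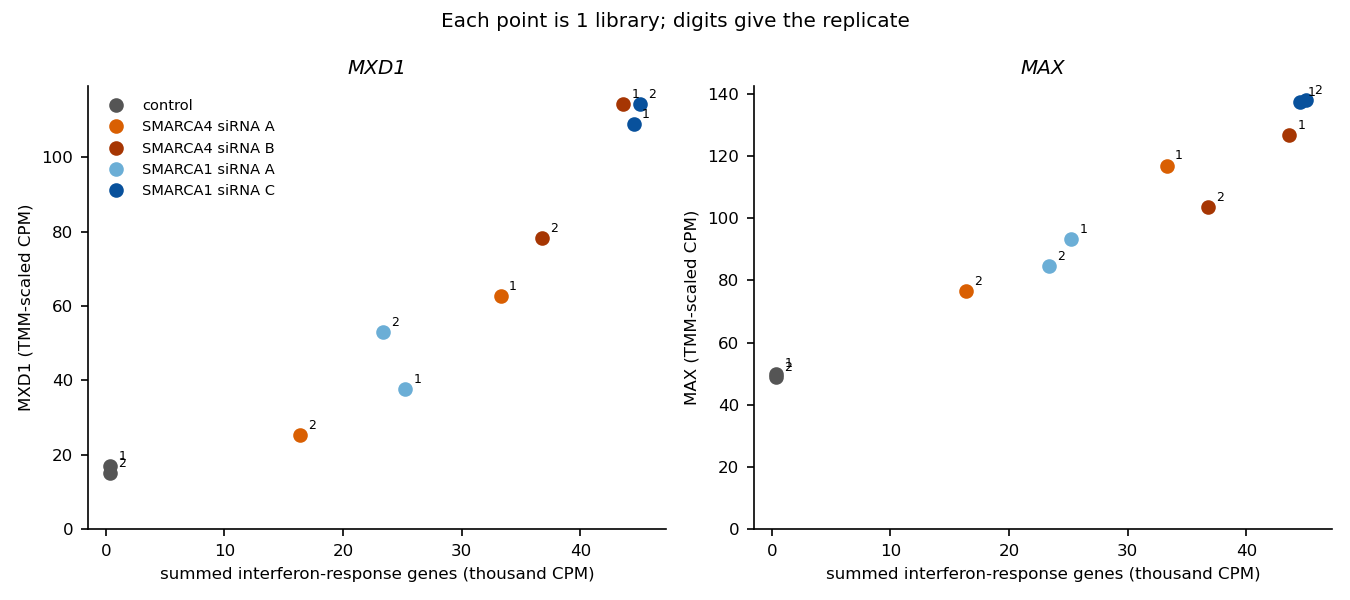
*MXD1* (left) and *MAX* (right) in TMM-scaled CPM (y axes) against the summed CPM of 25 interferon-response genes (x axis, in kilo-CPM); each point is 1 library, with its replicate number. The controls lie at the lower left at 353 and 361 CPM of the sum, and SMARCA4 siRNA A replicate 2 is the knockdown library nearest to them.

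*MXD4* (chromosome 4, 2247432 to 2262109), found mainly in differentiated cells, rose less. It stood at 41.0 and 46.0 CPM in the controls, 56.7 and 70.0 CPM with SMARCA4 siRNA A, 61.6 and 65.8 CPM with SMARCA4 siRNA B and 71.3 and 63.6 CPM with SMARCA1 siRNA A. With SMARCA1 siRNA C it was at 45.9 and 50.5 CPM and overlapped the controls. The log2 fold change was 0.55 (SE 0.12, adjusted p = 0.004, edgeR) in *SMARCA4* knockdown, a call lost without control replicate 1 (adjusted p = 0.053). In *SMARCA1* knockdown it was 0.39 (SE 0.12, adjusted p = 0.02, edgeR), lost without control replicate 1 (0.16), control replicate 2 (0.052) or SMARCA1 siRNA C replicate 2 (0.071). SMARCA1 siRNA A gave 0.63 (adjusted p = 0.006, edgeR) and siRNA C 0.15 (adjusted p = 0.39, edgeR), and their difference of -0.49 did not pass (adjusted p = 0.15, edgeR).

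*MNT* (chromosome 17, 2384073 to 2401104), the antagonist that most cells express throughout the cycle, fell together with *MYC*. It was at 57.7 and 65.95 CPM in the controls, 34.5 and 38.1 CPM with SMARCA4 siRNA A, 36.8 and 31.9 CPM with SMARCA4 siRNA B, 46.6 and 47.0 CPM with SMARCA1 siRNA A and 37.6 and 36.9 CPM with SMARCA1 siRNA C. No knockdown library reached the controls, and the log2 fold change was -0.81 (SE 0.10, adjusted p = 0.00018, edgeR) in *SMARCA4* and -0.57 (SE 0.10, adjusted p = 0.0015, edgeR) in *SMARCA1* knockdown. The difference of -0.24 between the knockdowns (SE 0.08, adjusted p = 0.048, edgeR) was at the threshold, and over all alternatives its adjusted p lay between 0.039 and 0.2.

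*MXI1* (chromosome 10, 110207605 to 110287365), a further SIN3-binding antagonist, fell in both knockdowns. It was at 17.8 and 15.8 CPM in the controls and between 6.89 and 10.9 CPM in all 8 knockdown libraries, with no overlap. Its log2 fold change was -0.84 (SE 0.15, adjusted p = 0.0014, edgeR) and -0.92 (SE 0.15, adjusted p = 0.00092, edgeR), and the difference was 0.08 (95% confidence interval -0.21 to 0.36).

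*MXD3* (chromosome 5, 177301461 to 177312757) is the member of its family known for expression in S phase. It was at 15.8 and 17.3 CPM in the controls, 8.52 and 12.5 CPM with SMARCA4 siRNA A, 7.20 and 8.24 CPM with SMARCA4 siRNA B, 16.3 and 14.0 CPM with SMARCA1 siRNA A and 11.1 and 10.8 CPM with SMARCA1 siRNA C. The *SMARCA4* knockdown libraries were all below the controls, while SMARCA1 siRNA A overlapped them. The log2 fold change was -0.88 (SE 0.16, adjusted p = 0.0013, edgeR) in *SMARCA4* knockdown and -0.36 (SE 0.16, adjusted p = 0.079, edgeR) in *SMARCA1* knockdown, the latter passing when only the 6 libraries compared were fitted (0.042). The difference of -0.52 (SE 0.13, adjusted p = 0.013, edgeR) was lost without SMARCA4 siRNA B replicate 1 (0.053) or SMARCA1 siRNA C replicate 1 (0.054). Beside it, all 13 proliferation markers fell in *SMARCA4* knockdown (median log2 fold change -0.84) and 10 of 13 fell in *SMARCA1* knockdown (median -0.45), against 22.3% and 23.0% of all genes called lower. Their sums were 2677 to 2709, 1315 to 1651 and 1664 to 2123 CPM in the controls, *SMARCA4* and *SMARCA1* knockdown. The part of the proliferation genes in the level of *MXD3* was not tested. *MXD3* shares 18.0% of its exon bases with *RAB24* on the same strand and 22.3% with *PRELID1* on the opposite strand, so its counts are less certain than those of the other antagonists.

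The E-box CACGTG, the site that MYC:MAX and the antagonist dimers share, was looked for in RefSeq promoter windows (250 bases before to 50 after a start, GRCh38.p14), of which there were 11 for 8 of the genes. The motif reads the same on both strands. It was present in 2 of the 11 windows, against 7.26% of 35116 windows of all genes and 8.97% of the windows of genes tested. The 2 windows that held it are those of *MXD4*, which rose, and of *MNT*, which fell. They are shown because they hold the motif, and other antagonists also rose or fell. The 120 bases at their distal end are given 5′ to 3′ on the minus strand, which is the strand of both genes, with the E-box in capitals. These bases cover chr4:2262240-2262359 for *MXD4* and chr17:2401191-2401310 for *MNT*.
MXD4: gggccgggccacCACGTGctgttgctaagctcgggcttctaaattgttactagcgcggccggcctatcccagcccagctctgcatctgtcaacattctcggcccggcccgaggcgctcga
MNT: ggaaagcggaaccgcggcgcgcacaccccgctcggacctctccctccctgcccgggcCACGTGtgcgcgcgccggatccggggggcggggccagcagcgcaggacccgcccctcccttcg
The E-box began 238 bases before the start of *MXD4* and 193 bases before that of *MNT*. The windows of *MXD1* and *MAX* did not hold it, and that of *MXD1* lies inside the gene as the files place it, at a start further downstream. After the interferon-response genes had been seen, the interferon-stimulated response element GAAANNGAAA and the gamma-activated site TTCNNNGAA were counted on both strands, and 0 of the 11 windows held either, against 3.57% and 7.66% of all windows. A match or its absence in such a window is a description of letters and does not show binding.

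Per exon length, the levels of the genes can be set beside each other as TMM-scaled RPKM, which is CPM divided by exon length in kilobases. This length covers all annotated exons of a gene, with 4584 bases for *MYC*, 6257 for *MAX* and 24957 for *PVT1*. Exons that the cells do not use lower the RPKM of a gene, so orders, ratios and sums between genes depend on these lengths. In the controls *MYC* stood first with a mean of 70.5 RPKM, followed by *MAX* at 7.91, *MNT* at 7.11, *MXD4* at 6.33, *MXD3* at 3.21, *MXI1* at 2.84, *MXD1* at 2.51, *MYCL* at 1.11, *PVT1* at 0.809 and *MYCN* at 0.0622 RPKM. Only *MNT* and *MXD4* overlapped among neighbours in this order. With SMARCA4 siRNA B the order was changed: *MAX* (18.4 RPKM) and *MXD1* (15.2 RPKM) led and overlapped each other, and *MYC* (7.41 RPKM) came next after *MXD4* (9.27 RPKM), with which it overlapped. *MYC* stayed first in the other groups, at 20.7 RPKM with SMARCA4 siRNA A, 39.9 RPKM with SMARCA1 siRNA A and 36.6 RPKM with SMARCA1 siRNA C.

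**Figure D4:**
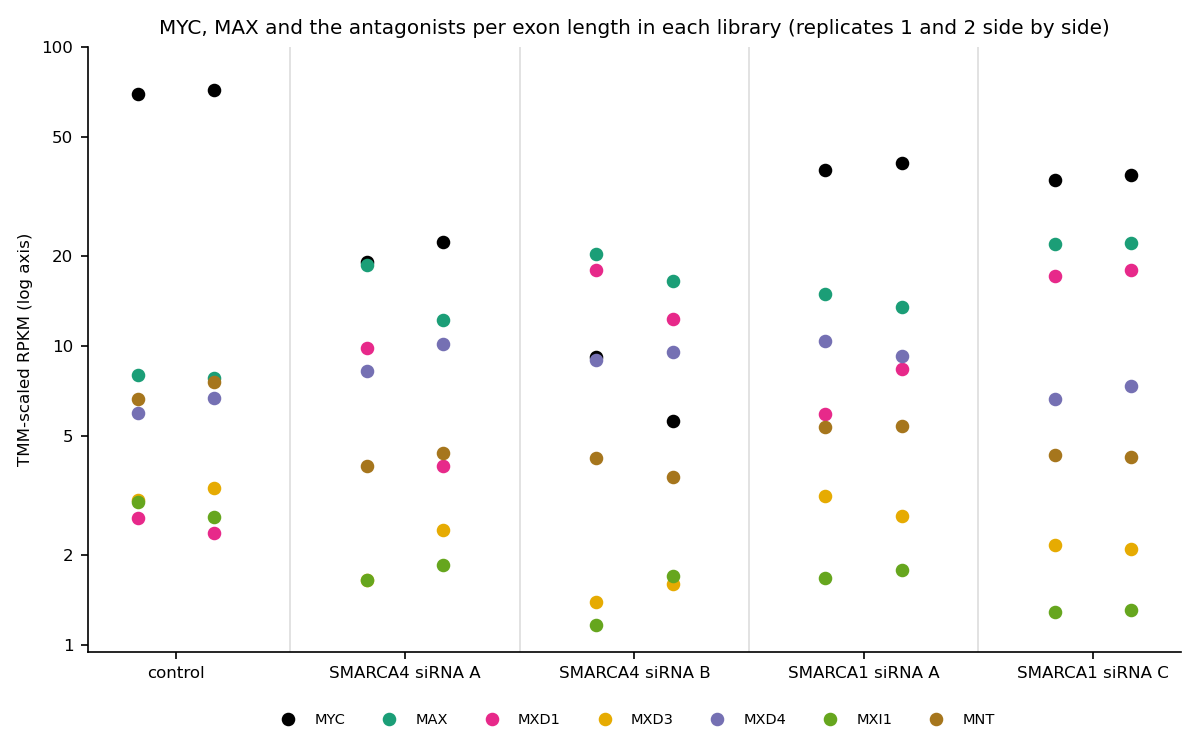
TMM-scaled RPKM on a log axis of *MYC*, *MAX* and the 5 antagonists in each library, with the groups side by side and replicates 1 and 2 next to each other. *MYC* is about 70.5 RPKM in the controls, far above *MAX* at 7.91 RPKM, and lies below *MAX* and *MXD1* in both libraries of SMARCA4 siRNA B.

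*MAX* RNA was scarce beside *MYC* RNA in the controls and less so after knockdown. The ratio of *MAX* to *MYC* in RPKM was 0.115 and 0.109 in the controls, 0.980 and 0.549 with SMARCA4 siRNA A, and 2.20 and 2.95 with SMARCA4 siRNA B. It was 0.385 and 0.329 with SMARCA1 siRNA A and 0.613 and 0.592 with SMARCA1 siRNA C. The RNA of all measured partners together, the *MYC* family and the antagonists, was 11.5 and 12.2 times that of *MAX* in the controls and between 2.17 and 5.16 times in the 8 knockdown libraries.

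The summed RNA of the antagonists differed less between the conditions than that of the *MYC* family. The antagonist sum was 21.3 and 22.7 RPKM in the controls, from 22.8 to 33.8 RPKM after *SMARCA4* knockdown and from 26.5 to 33.0 RPKM after *SMARCA1* knockdown. The *MYC* family sum was 70.7 and 72.7 RPKM in the controls, from 6.99 to 23.7 RPKM after *SMARCA4* knockdown and from 36.7 to 42.2 RPKM after *SMARCA1* knockdown. On the log2 scale the ratio of antagonists to *MYC* family was -1.73 and -1.68 in the controls, 0.32 and -0.06 with SMARCA4 siRNA A, 1.70 and 2.05 with SMARCA4 siRNA B, -0.59 and -0.62 with SMARCA1 siRNA A, and -0.22 and -0.21 with SMARCA1 siRNA C. The 3 conditions did not overlap, and the means differed by 2.71 in *SMARCA4* and 1.30 in *SMARCA1* knockdown against control and by 1.41 between the knockdowns. These are RNA levels, not protein, and no p-value is given for a sum over genes that were chosen with results of these data known.

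The make-up of the antagonist RNA was different. *MXD1* made up 12.5% and 10.4% of it in the controls, 38.9% and 17.4% with SMARCA4 siRNA A, 53.3% and 42.7% with SMARCA4 siRNA B, 22.4% and 30.4% with SMARCA1 siRNA A, and 54.3% and 54.5% with SMARCA1 siRNA C. *MNT* made up 31.1% and 33.4% in the controls and between 12.5% and 20.2% in the knockdown libraries, so that *MNT* was the leading antagonist in the controls and in no knockdown library.

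*PVT1* (chromosome 8, 127794526 to 128187101, plus strand) begins 51.6 kb after the end of *MYC* and did not follow it. It was at 19.5 and 20.9 CPM in the controls, 20.3 and 16.6 CPM with SMARCA4 siRNA A, 19.7 and 16.7 CPM with SMARCA4 siRNA B, 26.1 and 23.9 CPM with SMARCA1 siRNA A and 30.8 and 28.4 CPM with SMARCA1 siRNA C. The *SMARCA4* knockdown libraries overlapped the controls, while all 4 *SMARCA1* knockdown libraries were above them. The log2 fold change was -0.14 (SE 0.12, adjusted p = 0.38, edgeR) in *SMARCA4* knockdown, with a 95% confidence interval of -0.41 to 0.13. In *SMARCA1* knockdown it was 0.43 (SE 0.13, adjusted p = 0.018, edgeR), a call lost without control replicate 1 (0.11), control replicate 2 (0.059) or SMARCA1 siRNA C replicate 1 (0.055). The knockdowns differed by -0.57 (SE 0.10, adjusted p = 0.0022, edgeR), and this difference passed under every alternative tried, with adjusted p between 4.6e-05 and 0.015. Per exon length *PVT1* was 1.123% and 1.17% of *MYC* in the controls, from 2.98% to 11.9% after *SMARCA4* knockdown and from 2.33% to 3.44% after *SMARCA1* knockdown. These shares depend on the 24957 exon bases of *PVT1* beside 4584 of *MYC*. Without the lengths, the control means were 20.2 CPM for *PVT1* and 323 CPM for *MYC*.

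Of 18 further genes of the *MYC* region on 8q24, 15 were listed and 9 were tested. In *SMARCA4* knockdown 2 were higher and 2 lower, in *SMARCA1* knockdown 0 were higher and 2 lower, where 45.1% and 46.8% of all genes were called, so these counts were not above the background. *TRIB1*, which encodes a pseudokinase and lies at -2297.0 kb from *MYC* (negative distances are before its start), rose in *SMARCA4* knockdown (log2 fold change 0.67, SE 0.09, adjusted p = 0.0003, edgeR) and was at -0.21 in *SMARCA1* knockdown (adjusted p = 0.081). *LRATD2*, at -1177.0 kb, gave 0.90 (SE 0.14, adjusted p = 0.00072, edgeR) and -0.04 (adjusted p = 0.84). The latter averages siRNAs that lay on opposite sides of the controls (122 and 112.5 CPM), with 71.5 and 97.5 CPM for SMARCA1 siRNA A and 153 and 156 CPM for siRNA C. The prostate cancer lncRNA *PCAT1*, whose end lies at -316.4 kb, fell in both, by 1.35 (SE 0.13, adjusted p = 3.8e-05, edgeR) and by 0.40 (SE 0.13, adjusted p = 0.026, edgeR) on the log2 scale. *LRATD2* and *PCAT1* overlap on opposite strands.

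*CASC11*, an lncRNA on the strand opposite *MYC*, was also called lower, and it is named after its values were seen, since its level was under 1 CPM. Its counts were 17 and 18 in the controls and between 2 and 12 in the knockdown libraries, with log2 fold changes of -3.02 (SE 0.44, adjusted p = 0.00041, edgeR) and -1.73 (SE 0.39, adjusted p = 0.0048, edgeR). *CASC11* shares 194 exon bases with *MYC*, and its count was between 0.0615% and 0.272% of that of *MYC* in every library. The study describes its RNA reads as strand-specific, but the strand setting of the counting is not given in the sources used here. Whether reads of the shared bases from *MYC* and from *CASC11* were kept apart in these counts is therefore not known.

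**Figure D5:**
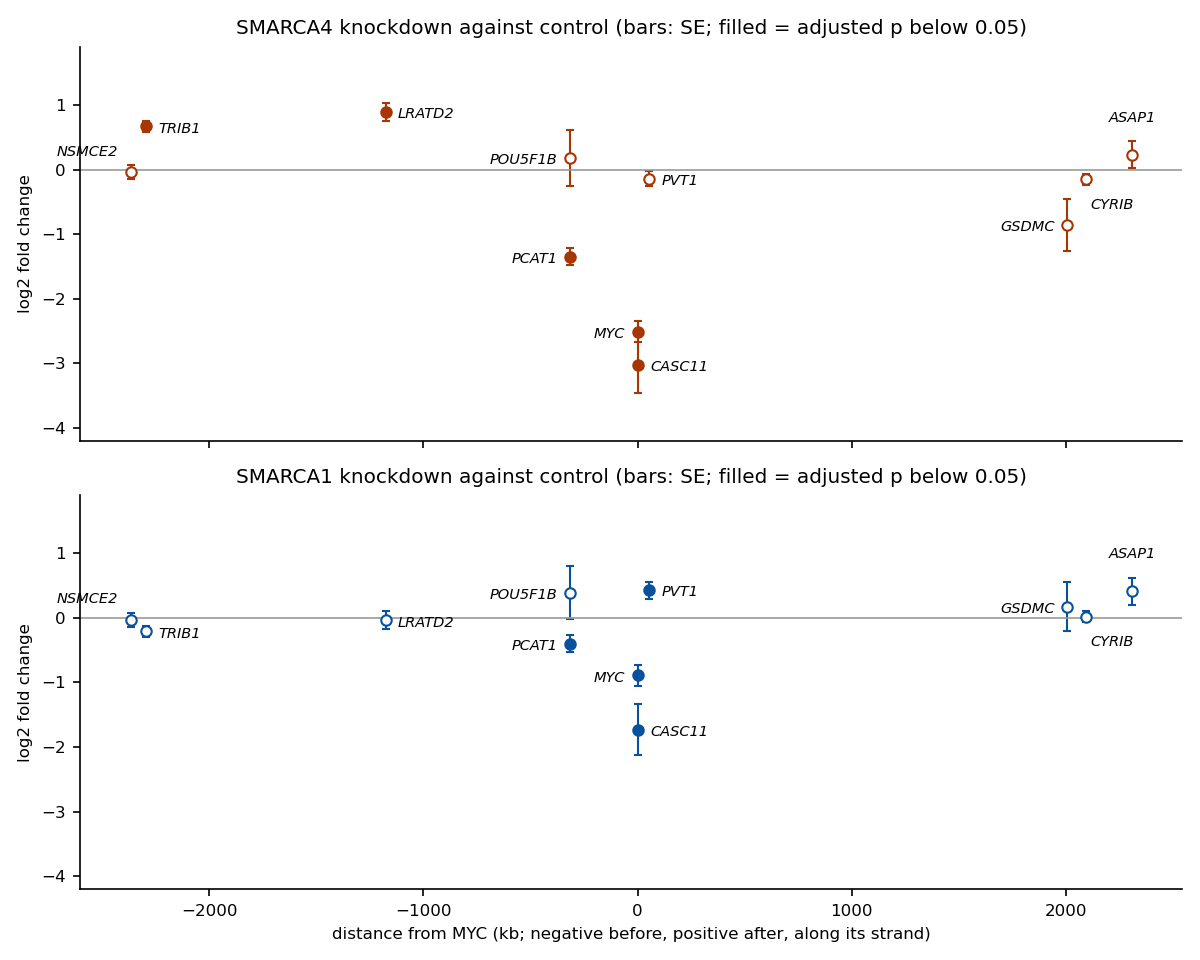
Log2 fold change (y axis, bars are SE) of *MYC*, *PVT1* and the 9 tested neighbours against distance from *MYC* in kb (x axis), in *SMARCA4* knockdown (top) and *SMARCA1* knockdown (bottom); filled points passed an adjusted p of 0.05. *PVT1*, 51.6 kb after *MYC*, lies near 0 in the upper panel, where *MYC* is at -2.51, and at 0.43 in the lower panel.

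Each siRNA was also compared with the controls on its own. Of the 9 genes tested, 7 were called with SMARCA4 siRNA A (33.2% of all genes), 7 with SMARCA4 siRNA B (45.0%), 6 with SMARCA1 siRNA A (34.8%) and 8 with SMARCA1 siRNA C (45.3%). *MYC*, *MAX*, *MXD1*, *MXI1* and *MNT* were called in the same direction with all 4. These counts depended on the controls. With either control library left out they were lower or the same, and fewer of all genes were called in each of these comparisons. Leaving out SMARCA4 siRNA A replicate 1 or SMARCA1 siRNA C replicate 1 lowered the count for that siRNA, and fewer of all genes were called as well. The count of 5 between the knockdowns was lower without either library of SMARCA4 siRNA B or of SMARCA1 siRNA C, as was the number of all genes called. SMARCA1 siRNA C and siRNA A differed in 0 of the 9 genes by edgeR, where 0.0118% of all genes passed. DESeq2 called 1 of them, *MAX*, where 488 of 13382 genes passed, and 7 of the 9 had an unadjusted p below 0.05, against 17.1% of all genes. The edgeR count was above 0 without SMARCA1 siRNA A replicate 2 or without either library of SMARCA4 siRNA A, where more of all genes were called too.

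Other partners of MAX and of its relative MLX were not called in either knockdown as a whole. *MGA*, *MLX*, *MLXIP* and *MLXIPL* gave log2 fold changes of 0.02, 0.09, 0.16 and -0.42 in *SMARCA4* and of 0.01, 0.13, 0.16 and 0.10 in *SMARCA1* knockdown. None of the 4 was called by edgeR or DESeq2 or had an unadjusted p below 0.05 in either comparison. By single siRNA, *MLXIP* was called with SMARCA1 siRNA A by both tools.

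Of 13 tested corepressors that MXD proteins and MNT recruit, 4 were higher and 4 lower in *SMARCA4* knockdown, with a median log2 fold change of -0.15 beside 0.00 for all genes, and 2 were higher and 3 lower in *SMARCA1* knockdown (median 0.09). Of all genes 45.1% and 46.8% were called in these comparisons. The SIN3-associated *ARID4A* rose in both (0.86 and 0.92), the nuclear receptor corepressor *NCOR1* rose in *SMARCA4* knockdown (0.63), and the deacetylase *HDAC2* fell in both (-0.74 and -0.25). Of 16 MYC cofactors, 3 were higher and 5 lower in *SMARCA4* knockdown (median 0.01), and 6 were higher and 2 lower in *SMARCA1* knockdown (median 0.07), so that 8 of 16 were called in each, near the same background. The ATPase *RUVBL1* (-1.0) and the actin-like subunit *ACTL6A* (-0.69) fell in *SMARCA4* knockdown and the MYC-binding protein *MYCBP* fell in both (-0.73 and -0.69), while *ZBTB17*, whose product MIZ1 recruits MYC to repressed promoters, rose in both (0.69 and 0.59).

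Of 20 tested genes for the turnover of MYC protein, 3 were higher and 8 lower in *SMARCA4* knockdown (median log2 fold change -0.02), against 22.8% and 22.3% of all genes. In *SMARCA1* knockdown 3 were higher and 9 lower (median -0.28), against 23.8% and 23.0%. *AURKA* (-0.98 and -0.65) and *PLK1* (-0.88 and -0.96), kinases that protect MYC proteins and drive mitosis, fell in both, as did the ubiquitin ligase subunit *SKP2* (-0.61 and -0.94), and the deubiquitinase *USP28* rose in both (0.48 and 0.59). *SET*, an inhibitor of the phosphatase PP2A, fell by 0.95 and by 0.33 on the log2 scale.

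Of 19 tested genes that MYC is known to activate, 18 fell and 0 rose in *SMARCA4* knockdown (median log2 fold change -1.02), 8 fell and 0 rose in *SMARCA1* knockdown (median -0.25), and 16 were lower and 0 higher in *SMARCA4* than in *SMARCA1* knockdown (median -0.73). The shares of all genes called lower in these 3 comparisons were 22.3%, 23.0% and 19.1%. The transferrin receptor *TFRC* (-1.79 and -1.01) and the lactate dehydrogenase *LDHA* (-1.69 and -0.84) fell in both knockdowns. Of 11 genes that MYC is known to repress, 6 were higher and 1 lower in *SMARCA4* knockdown (median 0.32), and 3 were higher and 1 lower in *SMARCA1* knockdown (median 0.06). Among all genes 22.8% and 23.8% were called higher there, so the 3 of 11 in *SMARCA1* knockdown were near the background. The cyclin-dependent kinase inhibitors *CDKN2B* (1.62 and 1.71) and *CDKN1A* (0.81 and 1.77) rose in both.

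The genes whose pattern was most like that of *MYC* over the 8 knockdown libraries were *DDN*, *EPHA8*, *CAMKV*, *RPL14P1* and *FABP5*, with a root mean square difference between 0.36 and 0.50 on the log2 scale among 13646 genes. *RPL14P1* carries a pseudogene name and may share reads with its parent gene. Of the network, *MXI1* (rank 900) and *MXD3* (rank 912) were nearest to *MYC*, both at 1.31, and *MXD1* was farthest at rank 13268 (3.99). For *PVT1* the nearest genes were *HSP90AB1*, *BORCS7*, *CKS1B*, *DHX32* and *FYN*, at 0.09 to 0.11, and *MYC* ranked 13189 (2.01). With Pearson correlation over the 5 group means in place of the distance, 0 of the 5 genes nearest to *MYC* and 1 of those nearest to *PVT1* stayed among the 5 nearest, so these names depend on the measure. The ranks of the network genes depended on it too: by Pearson correlation *MXD3* ranked 572, *MNT* 1753 and *MXI1* 3023 beside *MYC*, and *MYC* ranked 3441 beside *PVT1* (r = 0.491 over 5 group means, a description with no test).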

How the data were processed

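The authors aligned reads to hg38 with HISAT2 2.1.0 and deposited raw gene counts from featureCounts 1.5.2, per the labels and methods. The deposited files also hold each gene's exon length in bases (other values), which was used for RPKM. The annotation release and strand setting are not given in the sources used here.

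Counts of all 10 libraries were fitted together as 5 groups with edgeR 4.0.16 (R 4.3.3, limma 3.58.1). Genes passed filterByExpr (minimum count 10, minimum total 15), libraries were scaled by TMM, and contrasts of group means were tested by the quasi-likelihood test with Benjamini-Hochberg adjustment over 16899 genes (threshold 0.05). The SE is the log2 fold change over the square root of F, and intervals are 95%. A knockdown contrast averages its 2 siRNA groups. Its SE rests on the spread between libraries of a group and leaves out that between siRNAs. The code was tested on simulated data. DESeq2 1.42.0, other scalings, filters, a replicate block, fewer groups and leaving out each library were alternatives. The counts by DESeq2 and at an unadjusted p, and the interferon motifs, were added after seeing the data.

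Likeness was the root mean square difference of log2(CPM + 0.1) changes from the control mean over 8 knockdown libraries. The text names every member, the 5 nearest genes, from each list genes among the 3 largest called rises and 3 largest called falls of each knockdown with a mean of at least 1 CPM, and all MAX and MLX partners. The exact permutation p planned for the antagonist ratio is not given. Members, lists and tests were chosen with earlier results of these data known. Limits from a count of 0 cover counting error only. The confidence intervals of fold changes rest, as their SE does, on the spread between libraries of a group. Within groups no replicates held identical values, and their chi-square per gene was between 3.8 (SMARCA1 siRNA C) and 60.6 (SMARCA1 siRNA A). The fit gave all groups the same spread for a gene, so SE and counts by siRNA depend on this. For SMARCA1 siRNA A, 5873 of 16899 genes were called against control, and 3665 of 15738 with only the groups compared. For siRNA C these were 7659 of 16899 and 10623 of 16159.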

Additional observations from a re-analysis of the deposited data

Results flagged for a closer look

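For 5 genes the change against control differed between *SMARCA4* and *SMARCA1* knockdown, as tested by the contrast of the knockdowns in edgeR with Benjamini-Hochberg adjustment. The log2 difference of *SMARCA4* to *SMARCA1* knockdown was -1.62 for *MYC*, 0.45 for *MYCL*, -0.52 for *MXD3*, -0.24 for *MNT* and -0.57 for *PVT1*. *MYC* and *PVT1* passed under every alternative tried, and *MYCL*, *MXD3* and *MNT* each lost the call without at least 1 library. No gene had a library far from the others within the groups of 4.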

How the results depend on the processing

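No call of a tested member reversed its direction. Differences between the knockdowns that were not called in the main fit did change sign among the alternatives. They ranged from -0.22 to 0.08 for *MAX*, from -0.52 to 0.14 for *MXD1* and from -0.06 to 0.22 for *MXI1*. These alternatives covered the tested members in the comparisons of the knockdowns with control and with each other. The members kept their side of the threshold in 249 of 270 results with a library left out. Under other alternatives 209 of 218 results stayed the same, a total that includes the counts of nearest genes kept with Pearson correlation. Genes named from the lists were not part of these counts, so their dependence on the processing is not covered by them. Replicate numbers were not taken to pair the samples, since not every pair of groups had a correlation of replicate differences over 0.1 (from -0.286 between the controls and SMARCA1 siRNA A to 0.569 between the *SMARCA4* siRNAs), although SMARCA1 siRNA A also gave 0.467 and 0.154 with SMARCA4 siRNA B and siRNA A, and the replicate block changed 1 call, *MNT* between the knockdowns (-0.24, adjusted p = 0.057), and left the ratio differences at 2.71, 1.30 and 1.41. Between the *SMARCA4* siRNAs the count of genes called was 2 with no filter and 0 with only the groups compared, and between the *SMARCA1* siRNAs it was 1 with DESeq2 and 3 with no filter. With no filter 2352 and 1276 of 31986 genes were called in these comparisons. With a library left out, counts ranged from 1 to 3 and from 0 to 2 in these comparisons, from 3 to 5 between the knockdowns, from 3 to 7 with SMARCA4 siRNA A, from 6 to 7 with siRNA B, from 1 to 6 with SMARCA1 siRNA A, from 5 to 8 with siRNA C, and from 6 to 7 and from 5 to 8 in *SMARCA4* and *SMARCA1* knockdown. The log2 ratio of antagonists to *MYC* family rose by 3.03 and 1.60 when *MNT* was left out of the sum, and ranged from 2.36 to 3.06, from 1.23 to 1.37 and from 1.06 to 1.76 with a library left out. Of the 5 genes nearest to *MYC* and to *PVT1*, 0 and 1 remained with Pearson correlation. The cause of these shifts was not tested. With 2 libraries a group, leaving out 1 assumes that the lone library varies like the other groups.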
